A study of Mus musculus with 18 samples.

Results

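The genes described are 8 that mature migratory dendritic cells are known for: Ccr7, Fscn1, Cd40, Ccl22, Cd83, Marcksl1, Relb and Zbtb46. They were named as a set and found by matching Ensembl mouse gene IDs to those symbols, and all 8 of the 8 had a row among the 37620 gene IDs of the count tables. RNA came from 18 subcutaneous melanoma tumours of C57BL/6 mice. The tumour cells were MO4, a B16F10 melanoma line expressing ovalbumin, inoculated into both hindlimbs on day 0. Cells derived from induced pluripotent stem cells were injected around the right tumour on days 5, 6 and 7, and tumour RNA was extracted on day 11.

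The 6 groups held 3 libraries each. They were right and left tumours of mice given IFN-alpha-iPSC-pMCs (IFN-alpha-pMC below), right and left tumours of mice given iPSC-pMCs (pMC), and right and left tumours with no treatment (control). The right tumour was the injected one, and the left one lay at a distance in the same kind of mouse. The labels name no age, do not say what IFN-alpha marks in the cells, and do not say whether injected cells remained in the tumour, so RNA of injected cells cannot be told apart from that of the host in these counts. They also do not say that libraries of a group came from separate animals, so the p-values measure only the spread between these samples, which may be technical.

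Dendritic cells that have matured switch from taking up antigen to presenting it, and they leave the tissue for the draining lymph node. CCR7, a chemokine receptor, guides them along its ligands CCL19 and CCL21, while CD40, a receptor of the tumour necrosis factor receptor family, receives help from T cells that carry CD40 ligand. Mature dendritic cells also secrete CCL22, which attracts cells that carry CCR4, and they display CD83, which stabilises major histocompatibility complex class II and CD86 at the cell surface. RelB, a subunit of the alternative NF-kappa-B pathway, and the actin-bundling protein fascin, product of Fscn1, belong to the same programme. None of these genes is limited to dendritic cells.

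The RNA was a bulk extract, so fewer cells of a type and less RNA per cell cannot be told apart. Libraries held between 14346091 and 23430259 counts. In a principal component analysis, right and left IFN-alpha-pMC libraries scored between 19.4 and 59.6 on component 1, and the remaining libraries between -38.3 and -2.4. Right control library 3, right IFN-alpha-pMC library 3 and left IFN-alpha-pMC library 1 each had the lowest mean rank correlation with its own group (0.945, 0.963 and 0.968), in the 3 groups with the lowest such values. They are called the 3 libraries that stood apart, though right control library 2 was at 0.958 and was kept. Right control library 3 and right IFN-alpha-pMC library 3 each lay nearer the other group in some genes (Fscn1, Nfkb2 and Traf3), and their deviations from their group means correlated at -0.76. Their T cell genes (190 CPM in the IFN-alpha-pMC against 31.6 CPM in the control library) and skeletal muscle genes (3600 against 147 CPM) followed the labels, which were kept. Whether the 2 libraries were exchanged was not tested. Results that these libraries move are given with and without them, in an alternative chosen after seeing the data. Without them, 54.4% and 28.5% of all genes were called for IFN-alpha-pMC against control and against pMC on the right. On the left 28.8% and 27.6% were. A call made only in that alternative is therefore not read as a result about a gene.

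Levels per transcript length ranked the genes in a similar way in injected and untreated tumours. In right IFN-alpha-pMC tumours, Marcksl1 stood at 31.1 ± 3.65 RPKM (counts scaled to exon length and library total, mean ± SD, n = 3) and Fscn1 at 11.6 ± 3.58 RPKM. Cd83 at 8.03 ± 1.44, Cd40 at 5.35 ± 1.11 and Relb at 3.73 ± 0.72 RPKM lay in the middle. Ccr7 at 1.39 ± 0.162, Ccl22 at 1.18 ± 0.162 and Zbtb46 at 0.636 ± 0.107 RPKM were the lowest. In right control tumours Marcksl1 (27.9 RPKM) and Fscn1 (15.9 RPKM) also led, followed by Cd83 (5.09), Relb (2.88), Cd40 (1.31), Zbtb46 (0.829), Ccr7 (0.539) and Ccl22 (0.467 RPKM). The 2 most abundant members, an actin bundler and a substrate of protein kinase C, are also made by many other cells, whereas Ccr7, the migration receptor, was among the 3 lowest. Exon lengths came from an annotation of another genome build (GRCm38) than the counts (mm9).

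RefSeq promoter sequence was at hand for 4 of the 8 genes, Ccl22, Fscn1, Marcksl1 and Zbtb46. The 250 bases before the start of 3 of them are shown: Ccl22 as the one of the 4 that passed the test, and Fscn1 and Zbtb46 as those with negative fold changes against control on both sides, which did not pass. They run 5′ to 3′ on the coding strand, on build GRCm38.p6, with CpG pairs in capitals. Ccl22 lies at chr8:94745434-94745683 (plus strand), Fscn1 at chr5:142960105-142960354 (plus strand) and Zbtb46 at chr2:181424389-181424638 (minus strand).
Ccl22: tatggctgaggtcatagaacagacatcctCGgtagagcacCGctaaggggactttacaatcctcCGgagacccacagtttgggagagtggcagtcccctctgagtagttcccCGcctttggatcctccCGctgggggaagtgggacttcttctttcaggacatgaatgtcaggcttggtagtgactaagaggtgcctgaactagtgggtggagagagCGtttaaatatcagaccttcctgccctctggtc
Fscn1: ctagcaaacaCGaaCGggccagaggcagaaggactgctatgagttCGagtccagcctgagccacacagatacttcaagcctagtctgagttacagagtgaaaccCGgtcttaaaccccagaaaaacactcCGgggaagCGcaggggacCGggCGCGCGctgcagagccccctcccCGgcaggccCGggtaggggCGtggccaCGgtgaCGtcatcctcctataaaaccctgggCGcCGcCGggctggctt
Zbtb46: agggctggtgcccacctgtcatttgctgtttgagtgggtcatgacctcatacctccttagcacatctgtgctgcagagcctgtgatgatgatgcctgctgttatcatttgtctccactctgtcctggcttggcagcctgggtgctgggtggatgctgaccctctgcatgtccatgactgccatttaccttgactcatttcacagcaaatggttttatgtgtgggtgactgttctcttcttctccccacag
The Ccl22 window held 6 CpG pairs at 53.6% GC, the Fscn1 window 18 at 62.4% and the Zbtb46 window 0 at 51.6%. The Marcksl1 window, not shown, held 12 at 60.4%, and the medians over 32851 promoters were 6 CpG pairs and 52.4% GC. On either strand, none of the 4 windows held the kappa-B consensus, present in 3.9% of all promoters, or the core of the interferon-stimulated response element (GAAANNGAAA), present in 2.98%. Zbtb46 held 1 AP-1 motif (TGANTCA, 61 to 55 bases before the start, read the same on both strands), which 6.75% of all promoters held. Fscn1 held 1 TATA box (TATAAA, 31 to 26 bases before the start), which 12.4% held. These are matches of letters in these windows and not measured binding.

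In injected tumours, the receptors Cd40 and Ccr7 were higher with IFN-alpha-pMC than in untreated control tumours, while the other members did not pass the test. Cd40 was 4.08-fold higher and Ccr7 2.59-fold higher. Of the 8 members, 2 rose and 0 fell, when 8.78% of the 14849 genes tested rose and 2.01% fell (edgeR's quasi-likelihood test, adjusted p under 0.05). At an unadjusted p under 0.05, 3 members and 24.2% of all genes differed, and DESeq2 called 3 members and 14.3% of all genes. The median log2 fold change of the members was 0.52, against -0.03 over all genes, and single members ran between -0.41 and 2.03. Against pMC, Cd40 and Ccl22 rose and 0 members fell, when 8.88% of all genes rose and 1.21% fell, with a member median of 0.5 against -0.04. Both comparisons share the right IFN-alpha-pMC libraries, and those of the left tumours share the left ones.

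**Figure D1:**
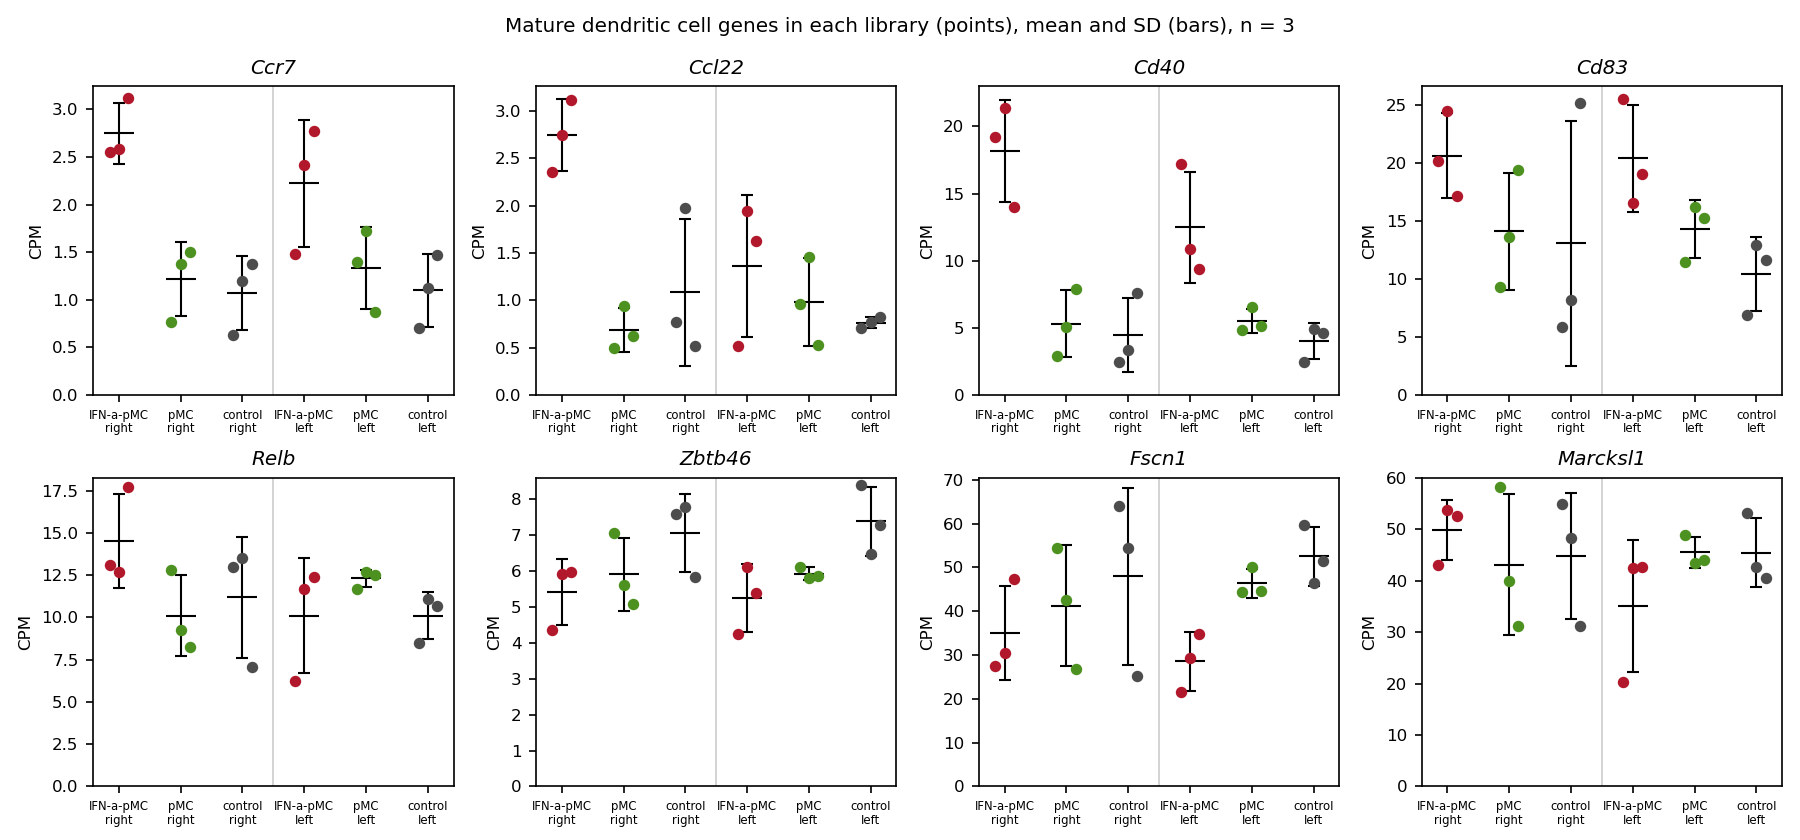
Level of each of the 8 genes in counts per 1000000 library counts (CPM, vertical axes) in the 18 libraries, by group (IFN-alpha-pMC, pMC and control, injected right tumours left of the grey line and distant left tumours right of it); points are libraries 1 to 3, bars are the mean and SD. Cd40, Ccr7 and Ccl22 of the injected IFN-alpha-pMC tumours lie above all right pMC and right control points, while Cd83, Fscn1, Marcksl1, Relb and Zbtb46 overlap. The share of all genes that separate in this way was not counted.

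Ccr7 (ENSMUSG00000037944, chromosome 11) was measured at 2.55, 2.58 and 3.12 CPM in right IFN-alpha-pMC libraries 1 to 3, against 0.771, 1.37 and 1.5 CPM in right pMC and 0.631, 1.2 and 1.37 CPM in right control libraries. The 3 right IFN-alpha-pMC libraries were close to each other and lay above all 6 others of that side. In distant tumours Ccr7 stood at 1.48, 2.42 and 2.77 CPM with IFN-alpha-pMC, against 1.4, 1.72 and 0.873 CPM with pMC and 0.704, 1.12 and 1.47 CPM in controls. The lowest left IFN-alpha-pMC library barely exceeded the highest left control and lay below the highest left pMC library. By group mean the order was right IFN-alpha-pMC (2.75), left IFN-alpha-pMC (2.22), left pMC (1.33), right pMC (1.21), left control (1.1) and right control (1.07 CPM), and each neighbouring pair overlapped. Counts behind these values were low, between 12 and 73 per library.

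On the injected side the log2 fold change of Ccr7 was 1.38 ± 0.37 (SE) against control (adjusted p = 0.0207), and 1.13 ± 0.36 against pMC, which missed the threshold (adjusted p = 0.057). Ccr7 was higher in 3 of 3 injected libraries than in every control library. The call against control ended without right control library 1 (adjusted p = 0.143), right control library 2 (0.0725) or right IFN-alpha-pMC library 2 (0.0526), and when the compared groups were fitted alone (0.125). Leaving out the 3 libraries that stood apart gave 1.59 (adjusted p = 0.00571). Against pMC it crossed the threshold without those 3 libraries (1.04, adjusted p = 0.0493) and with DESeq2 (1.12, 0.0228).

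Cd40 (ENSMUSG00000017652, chromosome 2) had 19.2, 21.4 and 14 CPM in right IFN-alpha-pMC libraries, against 2.92, 5.09 and 7.92 CPM in right pMC and 2.43, 3.36 and 7.59 CPM in right control libraries. The lowest IFN-alpha-pMC value lay well above the highest of the other 6. In distant tumours Cd40 had 17.2, 10.9 and 9.41 CPM with IFN-alpha-pMC, against 4.81, 6.56 and 5.15 CPM with pMC and 2.46, 4.88 and 4.64 CPM in controls. Again the IFN-alpha-pMC libraries were all above the rest, and library 1 was the highest. Cd40 was the member with the largest fold change against control on both sides.

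The log2 fold change of Cd40 was 2.03 ± 0.46 against control (adjusted p = 0.00751) and 1.75 ± 0.45 against pMC (adjusted p = 0.0184) in injected tumours. In distant tumours it was 1.83 ± 0.47 against control (adjusted p = 0.0378) and 1.33 ± 0.45 against pMC (adjusted p = 0.0819). The direction held in all 14 alternatives of each comparison, and the value ran between 1.63 and 2.92 against control on the right. The right call against control ended without right control library 1 (adjusted p = 0.0548) or 2 (0.0506) and with the compared groups alone (0.075). The right call against pMC ended without right IFN-alpha-pMC library 2 (0.0689), right pMC library 1 (0.0964) or right pMC library 2 (0.0787). The left call ended without left IFN-alpha-pMC library 1 (0.115) or 2 (0.075) and without left control library 1 (0.135), 2 (0.0906) or 3 (0.116). Without the 3 libraries that stood apart, Cd40 was called in all 4 comparisons (2.92, 1.9, 1.41 and 0.91). Of all genes, 54.4%, 28.5%, 28.8% and 27.6% were called in the same order.

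Ccl22 (ENSMUSG00000031779, chromosome 8), the chemokine whose promoter is shown above, had 2.36, 2.75 and 3.12 CPM in right IFN-alpha-pMC libraries, against 0.495, 0.943 and 0.622 CPM in right pMC and 0.776, 1.97 and 0.514 CPM in right control libraries. All 3 IFN-alpha-pMC libraries lay above the others of that side, and right control library 2 came nearest. In distant tumours it had 0.514, 1.94 and 1.63 CPM with IFN-alpha-pMC, against 0.962, 1.46 and 0.524 CPM with pMC and 0.704, 0.767 and 0.822 CPM in controls. There the groups overlapped, since left IFN-alpha-pMC library 1 held the lowest value of the side. Counts ran between 8 and 73 per library.

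Against pMC, Ccl22 was 3.84-fold higher in injected tumours (log2 1.94 ± 0.46, adjusted p = 0.0108), and this call held in 13 of 14 alternatives, ending without right pMC library 1 (adjusted p = 0.0635). Against control the log2 fold change was 1.38 ± 0.44, with an adjusted p of 0.0584. It passed the threshold without right control library 2 (2.01, adjusted p = 0.0141) and with DESeq2 (1.35, 0.0355), and stood at 1.01 (0.0668) without the 3 libraries that stood apart. In distant tumours the log2 values were 0.96 ± 0.48 against control (adjusted p = 0.156) and 0.59 ± 0.46 against pMC (adjusted p = 0.395). Without left IFN-alpha-pMC library 1 and the other 2 libraries that stood apart, the left value against control was 1.28 (adjusted p = 0.0404).

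Cd83 (ENSMUSG00000015396, chromosome 13) had 20.2, 24.5 and 17.2 CPM in right IFN-alpha-pMC libraries, against 9.3, 13.6 and 19.4 CPM in right pMC and 5.82, 8.2 and 25.2 CPM in right control libraries. The groups overlapped: right control library 3 held the highest value of the side, and right pMC library 3 also exceeded right IFN-alpha-pMC library 3. In distant tumours Cd83 had 25.5, 16.6 and 19.1 CPM with IFN-alpha-pMC, against 11.5, 16.2 and 15.3 CPM with pMC and 6.87, 12.9 and 11.6 CPM in controls, and there the IFN-alpha-pMC libraries were the highest. The log2 fold change against control was 0.63 ± 0.46 on the right (adjusted p = 0.467) and 1.14 ± 0.47 on the left (adjusted p = 0.103). Without right control library 3 alone, the right value was 1.67 (adjusted p = 0.00344). Without the 3 libraries that stood apart it was 1.78 (0.000309), and the left value was 0.83 (0.0395), when 54.4% and 28.8% of all genes were called. Against control, the call for Cd83 on the injected side therefore turned on 1 library.

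The 2 transcription factors had small fold changes, and neither passed the test in any of the 11 comparisons. Relb (ENSMUSG00000002983, chromosome 7) had 13.1, 12.7 and 17.7 CPM in right IFN-alpha-pMC libraries, against 12.8, 9.24 and 8.24 CPM in right pMC and 13, 13.5 and 7.08 CPM in right control libraries. The groups overlapped, with right IFN-alpha-pMC library 3 the highest and right control library 3 the lowest. Its log2 fold change against control was 0.41 ± 0.22 on the right, with a 95% interval of -0.07 to 0.9 (adjusted p = 0.28), and 0.13 ± 0.23 on the left (adjusted p = 0.673). After the 3 libraries that stood apart were left out, the right value was 0.07 (adjusted p = 0.767). In distant tumours Relb had 6.23, 11.7 and 12.4 CPM with IFN-alpha-pMC, 11.7, 12.7 and 12.5 CPM with pMC and 8.51, 11.1 and 10.7 CPM in controls, so the IFN-alpha-pMC group overlapped both others.

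Zbtb46 (ENSMUSG00000027583, chromosome 2) encodes a zinc finger factor of the conventional dendritic cell lineage that endothelial cells also express. It had 4.36, 5.91 and 5.98 CPM in right IFN-alpha-pMC libraries, against 7.04, 5.61 and 5.08 CPM in right pMC and 7.57, 7.77 and 5.82 CPM in right control libraries. In distant tumours it had 4.24, 6.1 and 5.38 CPM with IFN-alpha-pMC, against 6.12, 5.79 and 5.85 CPM with pMC and 8.39, 6.48 and 7.28 CPM in controls. On the left the IFN-alpha-pMC libraries all lay below the controls, and on the right the 2 groups overlapped. The log2 fold change was -0.35 ± 0.18 against control on each side (adjusted p = 0.24 on the right and 0.162 on the left), with an interval of -0.74 to 0.03 on the right. The summed level of 8 endothelial genes moved in the same direction on the left, with 51.9 to 72.8 CPM in IFN-alpha-pMC against 96.1 to 106 CPM in control libraries, and its part in the Zbtb46 values was not tested.

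Fscn1 (ENSMUSG00000029581, chromosome 5) had 27.4, 30.4 and 47.4 CPM in right IFN-alpha-pMC libraries, against 54.4, 42.5 and 26.9 CPM in right pMC and 64.1, 54.5 and 25.2 CPM in right control libraries. Library 3 was the highest of the right IFN-alpha-pMC group and the lowest of each of the other right groups. In distant tumours Fscn1 had 21.5, 29.4 and 34.9 CPM with IFN-alpha-pMC, against 44.3, 50.2 and 44.7 CPM with pMC and 59.7, 46.4 and 51.5 CPM in controls, and all IFN-alpha-pMC libraries were below the rest. Against control the log2 fold change was -0.41 ± 0.27 on the right (adjusted p = 0.39) and -0.74 ± 0.27 on the left (adjusted p = 0.0769). With the 3 libraries that stood apart left out, both passed the test, at -0.93 (adjusted p = 0.00265) on the right and -0.66 (0.0269) on the left. In that fit 54.4% of all genes passed on the right and 28.8% on the left. Without right control library 3 alone the right value was -0.67 (adjusted p = 0.0486). Its fold change was negative against control and against pMC on each side, and none of these 4 Fscn1 values passed edgeR's test with all libraries in 1 model. In these comparisons the values of Cd40, Ccr7 and Ccl22 were positive. On the left, Fscn1 was called against control by DESeq2 (-0.75, adjusted p = 0.0459). With the compared groups alone it was called there against control (-0.8, adjusted p = 0.0131) and against pMC (-0.62, 0.026).

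Marcksl1 (ENSMUSG00000047945, chromosome 4), an actin-regulating substrate of protein kinase C, had 43.1, 53.8 and 52.7 CPM in right IFN-alpha-pMC libraries, against 58.2, 40 and 31.2 CPM in right pMC and 55, 48.3 and 31.2 CPM in right control libraries. In distant tumours it had 20.3, 42.4 and 42.6 CPM with IFN-alpha-pMC, against 49, 43.5 and 44.1 CPM with pMC and 53.1, 42.7 and 40.6 CPM in controls. The groups overlapped on the right, and left IFN-alpha-pMC library 1 was far below the rest of the left libraries. The log2 fold change against control was 0.2 ± 0.24 on the right (interval -0.32 to 0.71, adjusted p = 0.692) and -0.25 ± 0.24 on the left (interval -0.76 to 0.27, adjusted p = 0.433). In the fit that left out the 3 libraries these were 0.02 and -0.04.

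**Figure D2:**
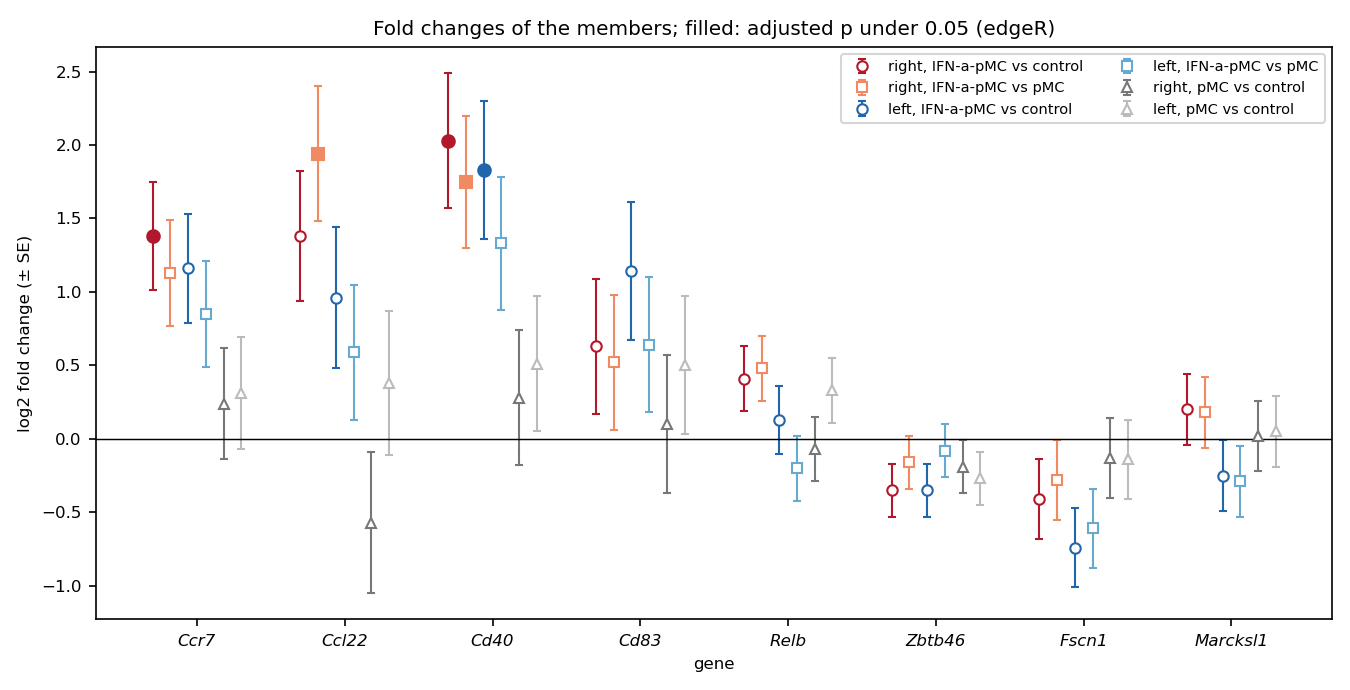
Log2 fold change with its SE (vertical axis) of the 8 genes (horizontal axis) for IFN-alpha-pMC against control, IFN-alpha-pMC against pMC, and pMC against control, on each side; filled symbols have an adjusted p under 0.05 in edgeR's test. The filled points are Ccr7 (1.38) and Cd40 (2.03) against control on the right, Ccl22 (1.94) and Cd40 (1.75) against pMC on the right, and Cd40 (1.83) against control on the left.

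In distant tumours of IFN-alpha-pMC mice, Cd40 was the 1 member that rose against control, 3.56-fold, and 0 fell, when 4.05% of all genes rose and 2.6% fell. Unadjusted, 4 members (Cd40, Ccr7, Cd83 and Fscn1) and 36.1% of all genes were under 0.05, and DESeq2 called 3 members (Ccr7, Fscn1 and Cd40) and 19.3% of all genes. The member median was 0.54, against 0.07 over all genes. Ccr7 stood at 1.16 ± 0.37 (adjusted p = 0.0613), and at 1.3 (0.0199) without the 3 libraries that stood apart. Against pMC, 0 members passed edgeR's test, when 2.71% of all genes rose and 1.14% fell. There 3 members (Cd40, Ccr7 and Fscn1) and 30% of all genes were under 0.05 unadjusted, and DESeq2 called 1 member (Cd40) and 13.9% of all genes. The member median was 0.26 against 0.07. With the 3 libraries left out, 4 of 8 members were called on the right against control, when 54.4% of all genes were, and 3 against pMC, when 28.5% were. On the left 5 were called against control, when 28.8% of all genes were, and 1 against pMC, when 27.6% were.

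Injection of pMC alone was not followed by a detectable change in the 8 genes. On the right and on the left, 0 of 8 members passed edgeR's test against control, as did 0% of all genes. Over all genes 359 on the right and 119 on the left had an unadjusted p under 0.05 and DESeq2 called 2 and 1, and among the members both counts were 0. The member median was -0.03 on the right and 0.32 on the left, against -0.03 and 0 over all genes. The 95% interval of Cd40 on the right ran from -0.72 to 1.28 and that of Ccr7 from -0.58 to 1.07. These overlap the intervals of IFN-alpha-pMC against the same controls (1.02 to 3.03 for Cd40 and 0.58 to 2.17 for Ccr7). In edgeR's direct test of IFN-alpha-pMC against pMC on the right, Cd40 passed (adjusted p = 0.0184) and Ccr7 did not (0.057). For Ccl22 the interval of pMC against control on the right was -1.61 to 0.48. On the left the members ran between -0.27 (Zbtb46) and 0.51 (Cd40, interval -0.5 to 1.52). When the 3 libraries that stood apart were left out, Cd40 (1.02, adjusted p = 0.039) and Cd83 (1.15, adjusted p = 0.0101) were higher in right pMC than in right control tumours, where control then had 2 libraries and 33.7% of all genes were called.

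No member passed the test between right and left tumours of the same treatment. With IFN-alpha-pMC, 0 of 8 members passed, when 2.53% of all genes did. Unadjusted, 0 members and 11.6% of all genes were under 0.05, and DESeq2 called 0 members and 3.95% of all genes. Ccl22 was nearest, with right minus left 0.92 ± 0.44 (adjusted p = 0.431), and its 3 right libraries lay above its 3 left ones. Relb and Marcksl1 each differed by 0.44 (adjusted p = 0.473 and 0.502), also with all right libraries above the left ones. The share of all genes that separate in this way was not counted. In pMC and in control mice 0 members and 0% of all genes passed, with 0 members under 0.05 unadjusted and 0 by DESeq2. Of all genes, 2.09% (pMC) and 0.781% (control) were under 0.05 unadjusted.

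Whether the effect of IFN-alpha-pMC differed between the injected and the distant side was tested as the right effect minus the left effect. Against control, 0 members passed, as did 0% of all genes. Unadjusted, 0 members and 6.18% of all genes were under 0.05, and DESeq2 called 0 members and 0.586% of all genes. Against pMC, 0 members passed when 0.391% of all genes did. Relb (0.68 ± 0.32, unadjusted p = 0.0462, adjusted p = 0.42) and Ccl22 (1.35 ± 0.66, unadjusted p = 0.0547, adjusted p = 0.433) came nearest. Of all genes 11.8% were under 0.05 unadjusted, and DESeq2 called 0 members and 1.9% of all genes. For Cd40 the difference was 0.19 ± 0.64 against control (interval -1.2 to 1.59) and for Ccr7 0.22 ± 0.52 (interval -0.92 to 1.36). The rise of Cd40 and Ccr7 on the right is thus not shown to differ from the values on the left.

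About as many of the other genes that mature dendritic cells are known for rose as did not pass on the injected side. Of 20 listed, 19 were tested, and in injected tumours with IFN-alpha-pMC 9 rose and 0 fell against control, with a median log2 fold change of 0.91 against -0.03 over all genes. Against pMC 6 rose and 0 fell (median 0.79). In distant tumours 6 rose and 0 fell against control (median 0.83) and 4 rose and 0 fell against pMC (median 0.78). Against control, pMC alone changed 0 of 19 on either side, with 0 under 0.05 unadjusted and 0 by DESeq2. Over all genes the shares that rose in the 4 IFN-alpha-pMC comparisons were 8.78%, 8.88%, 4.05% and 2.71%. With the 3 libraries that stood apart left out, the counts called in these 4 comparisons were 11, 12, 10 and 6 of 19, when 54.4%, 28.5%, 28.8% and 27.6% of all genes were called. For pMC against control they were then 3 on the right, when 33.7% of all genes were called, and 0 on the left. The right count against control was 5 without right control library 1, 6 without right control library 2, and 11 without right control library 3. It was 4 with the compared groups alone and 6 with the muscle covariate. In both of these fits fewer of all genes were called too, as the counts further below show. The drop is therefore not read as a result about this list. The shares of all genes called without these single right libraries are not given here. The left count against control was 0 without left IFN-alpha-pMC library 2 or left control library 1 or 3, and at most 3 without any other library of those groups. Shares of all genes for these left fits are not given here, so they are not read as a result about the list.

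Samsn1, an adaptor that restrains B cell signalling, had 15, 15.4 and 12.7 CPM in right IFN-alpha-pMC against 1.89, 3.17 and 3.37 CPM in right control libraries (log2 2.38 ± 0.31, adjusted p = 8.01e-05). Cd274, which encodes the checkpoint ligand PD-L1, had 240, 222 and 249 CPM against 38.1, 97.2 and 68.8 CPM (log2 1.82 ± 0.27, adjusted p = 0.000218). In both genes the lowest IFN-alpha-pMC library exceeded the highest control by more than the spread within either group. Pdcd1lg2, which encodes the second PD-1 ligand, had 3.45, 7.34 and 3.16 CPM against 0.243, 0.528 and 0.343 CPM (log2 3.67 ± 0.49, adjusted p = 9.35e-05). Aldh1a2, which encodes an enzyme that makes retinoic acid, had 14.4, 11.9 and 19.8 CPM against 2.13, 1.34 and 3.31 CPM (log2 2.75 ± 0.51, adjusted p = 0.0014). The calls of these 4 genes on the right against control held in all 14 alternatives. On the left, Cd274 (1.3 ± 0.27, adjusted p = 0.0156) and Samsn1 (1.21 ± 0.32, 0.0394) rose, while Pdcd1lg2 (1.52 ± 0.52, 0.0682) and Aldh1a2 (1.3 ± 0.5, 0.0876) did not pass. Samsn1 and Pdcd1lg2 were also higher in right than in left IFN-alpha-pMC tumours (1.27 ± 0.3, adjusted p = 0.0295, and 2.01 ± 0.44, 0.019), but 0 or 1 of the 2 calls was left when any single IFN-alpha-pMC library was left out. Il12b, which encodes a subunit of interleukin-12, rose on the left (2.29 ± 0.54, adjusted p = 0.0291) and stood at 0.91 ± 0.48 on the right (0.27); the difference between the sides was -1.38 ± 0.73 (0.743). Leaving out left IFN-alpha-pMC library 2, left control library 1 or left control library 3 ended the left call of Cd274 (adjusted p up to 0.0923), and leaving out any 1 left IFN-alpha-pMC or left control library ended that of Samsn1 (up to 0.138).

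**Figure D3:**
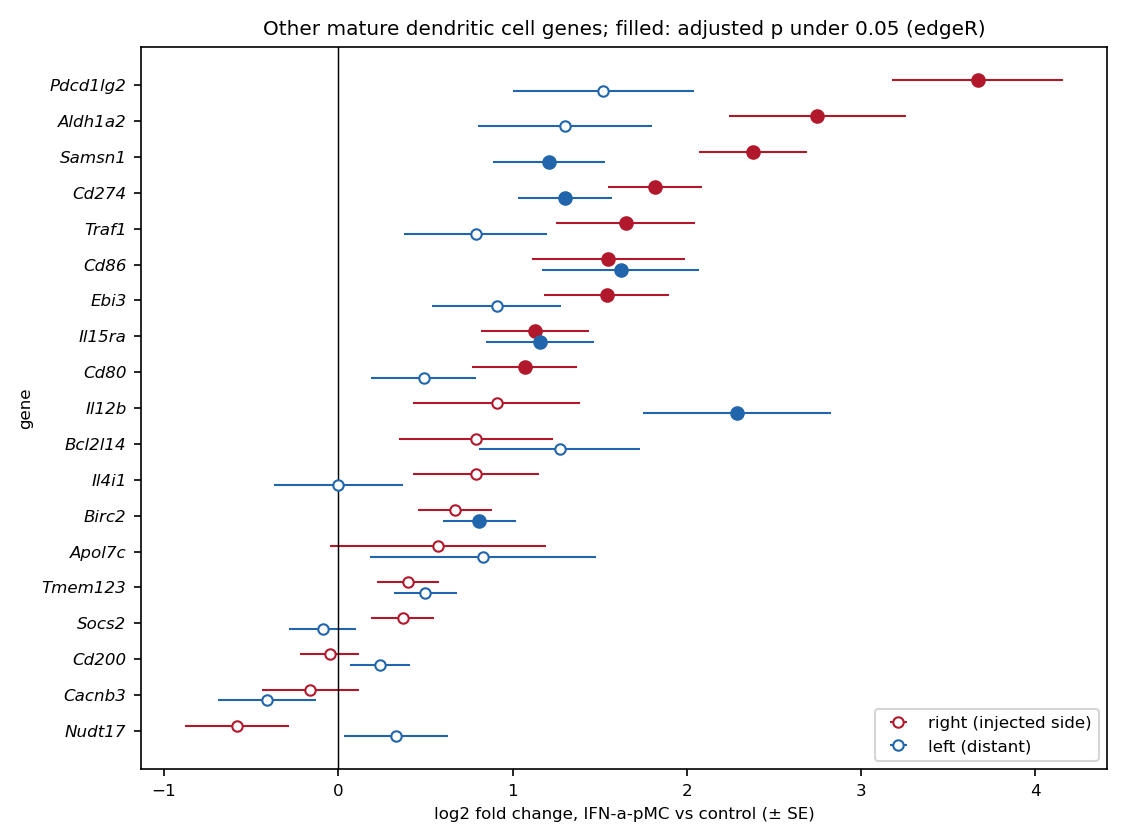
Log2 fold change with its SE (horizontal axis) of the 19 tested genes of the other mature dendritic cell list (vertical axis), IFN-alpha-pMC against control, in injected right tumours and distant left tumours; filled points have an adjusted p under 0.05 in edgeR's test. On the right 9 points are filled and on the left 6, all to the right of 0, with Pdcd1lg2 (3.67) the farthest on the injected side and Il12b (2.29) on the distant side.

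Partners of the members (their ligands, receptors and signalling molecules) were listed as well. Of 13 listed, 8 were tested, and on the right against control 1 rose, when 8.78% of all genes did. It was Nfkbia, which encodes an inhibitor of NF-kappa-B and is itself a target of it. Nfkbia had 28, 33.3 and 37.2 CPM in right IFN-alpha-pMC against 12.4, 18.4 and 18 CPM in right control libraries (log2 1.02 ± 0.23, adjusted p = 0.00747), and all 3 lay above the controls. That call ended without right control library 1 (adjusted p = 0.0757), with the compared groups alone (0.0835) and with a skeletal muscle covariate (0.0501). Against pMC it was 0.75 ± 0.23 (adjusted p = 0.0491), a call that ended in 9 of 14 alternatives. On the left 0 partners passed against control or pMC. Unadjusted, 2 and 3 partners were under 0.05, when 36.1% and 30% of all genes were. DESeq2 called 0 partners, when it called 19.3% and 13.9% of all genes.

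Nfkb2, whose product pairs with RelB, had 20.5, 25.9 and 48.5 CPM in right IFN-alpha-pMC against 45.7, 44.5 and 17.5 CPM in right control libraries (log2 -0.15 ± 0.28, adjusted p = 0.819). Library 3 of each group lay on the other group's side, as in Fscn1. Without the 3 libraries that stood apart Nfkb2 was lower (-0.85, adjusted p = 0.000238), and on the left it was -0.48 (0.0165) without them and -0.59 ± 0.28 (0.138) with them. Traf3, an adaptor of CD40 and a brake on the alternative NF-kappa-B pathway, had the same pattern, with 34.7, 37.9 and 87.6 CPM in right IFN-alpha-pMC against 94.8, 112 and 34.3 CPM in right control libraries. Its value was -0.55 ± 0.31 (adjusted p = 0.298) with all libraries and -1.4 (5.2e-07) without the 3. It was also called without right IFN-alpha-pMC library 3 alone (-1.12, 0.0135) or right control library 3 alone (-0.87, 0.0177). Nfkb1 (0.13 ± 0.22, adjusted p = 0.79) and Traf2 (0.07 ± 0.13, 0.807) did not pass. Nfkb1 was at -0.44 (0.00271) without the 3 libraries, with its sign turned. In that fit 5 of the 8 partners were called on the right against control, near the 54.4% of all genes.

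The ligands and receptors at the other end were near the limit of detection and below the filter for testing. Cd40lg, the ligand of CD40 carried by activated T cells, had 19, 7 and 19 counts in right IFN-alpha-pMC libraries, against 0, 4 and 2 in right pMC and 0, 2 and 0 in right control libraries. Ccr4, the receptor of CCL22, had 10, 6 and 12 counts in right IFN-alpha-pMC, against 1, 4 and 1 in right pMC and 1, 5 and 2 in right control libraries. Both were highest in the injected IFN-alpha-pMC tumours. Ccl19, a ligand of CCR7, had 0 or 1 count in every library. For Ccl21a, the other ligand of CCR7, no ID was matched here, so it was not analysed.

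Markers of other cell types were measured beside these genes, since T cells carry Ccr7, and B cells and macrophages carry Cd40 and Cd83. In injected tumours 9 of 9 T cell genes rose with IFN-alpha-pMC against control, and their summed level was 175 to 228 CPM against 17.6 to 34.7 CPM. Of 5 genes of naive and central memory T cells 3 rose (53.3 to 64.5 against 21.2 to 24.2 CPM). Of 8 macrophage genes 6 rose (1310 to 1540 against 442 to 713 CPM). Of 5 B cell genes tested out of 8 listed 1 rose (9.13 to 13.7 against 5.63 to 7.77 CPM). On the injected side the summed ranges did not overlap for any of these lists. In distant tumours 6 of 9 T cell genes rose (50.1 to 66.5 against 18.5 to 34.5 CPM) and 4 of 8 macrophage genes (711 to 831 against 460 to 567 CPM). Of the 5 naive and central memory T cell genes 2 rose there, with overlapping sums (20.9 to 33 against 21.4 to 24.7 CPM). Of the 5 B cell genes tested 0 passed edgeR's test, 2 were under 0.05 unadjusted and 0 were called by DESeq2, with overlapping sums (5.78 to 7.78 against 5.58 to 6.62 CPM). Their part in the Ccr7, Cd40 and Cd83 values was not tested.

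Genes of dendritic cells in general were at low levels. Flt3, which encodes the receptor of the dendritic cell growth factor FLT3 ligand, averaged 1.46 ± 0.548 CPM in right IFN-alpha-pMC and 0.901 ± 0.244 CPM in right control tumours (SD, n = 3 each) and did not pass (log2 0.71 ± 0.39, adjusted p = 0.289). The other 3 of that list rose, namely Itgax (1.66 ± 0.37, adjusted p = 0.00591), Kmo (1.82 ± 0.3, 0.000497) and Ciita (1.38 ± 0.27, 0.00206). Of 8 cDC1 genes 1 rose, and 4 were under 0.05 unadjusted, when 24.2% of all genes were. Their median log2 fold change was 0.66, against -0.03 over all genes, though the summed level overlapped between groups (544 to 748 against 397 to 738 CPM). Of 5 cDC2 genes 1 rose, and 1 was under 0.05 unadjusted. Their median was 0.7, with overlapping sums (338 to 477 against 251 to 454 CPM). In distant tumours 3 of 8 cDC1 genes rose (list median log2 fold change 0.77), with overlapping sums (337 to 637 against 526 to 616 CPM). There 0 of 5 cDC2 genes passed edgeR's test, 0 were under 0.05 unadjusted and 0 were called by DESeq2. Their sum was lower in every IFN-alpha-pMC library (178 to 323 CPM) than in every pMC (344 to 377 CPM) and control library (370 to 386 CPM). Single cDC2 genes did not all fall. Their median log2 fold change was 0.14 against control (range -1.42 to 0.76) and -0.36 against pMC (range -0.92 to 0.3). Genes of these lists were measurable in every group, but a sum is weighted towards its most abundant genes. No member marks mature migratory dendritic cells alone in a bulk sample.

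Genes of skeletal muscle separated the groups as well, with a summed level of 1570 to 3600 CPM in right IFN-alpha-pMC against 26.5 to 953 CPM in right control libraries, and 567 to 889 CPM in left IFN-alpha-pMC against 7.53 to 301 CPM in left control libraries. With the muscle level as a covariate, Ccr7 and Cd40 on the right against control and Ccl22 on the right against pMC were still called. Cd40 no longer passed against pMC on the right (1.92, adjusted p = 0.105) or against control on the left (2.03, 0.148), although its values did not shrink. The 8 melanocyte genes, which mark the tumour cells, summed to 32300 to 36500 CPM against 33300 to 40800 CPM on the right, and 0 passed edgeR's test, 0 were under 0.05 unadjusted and 0 were called by DESeq2. There, 4 passed when the 3 libraries that stood apart were left out, when 54.4% of all genes did. Without right control library 3 alone 2 passed, and the share of all genes in that fit is not given here.

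**Figure D4:**
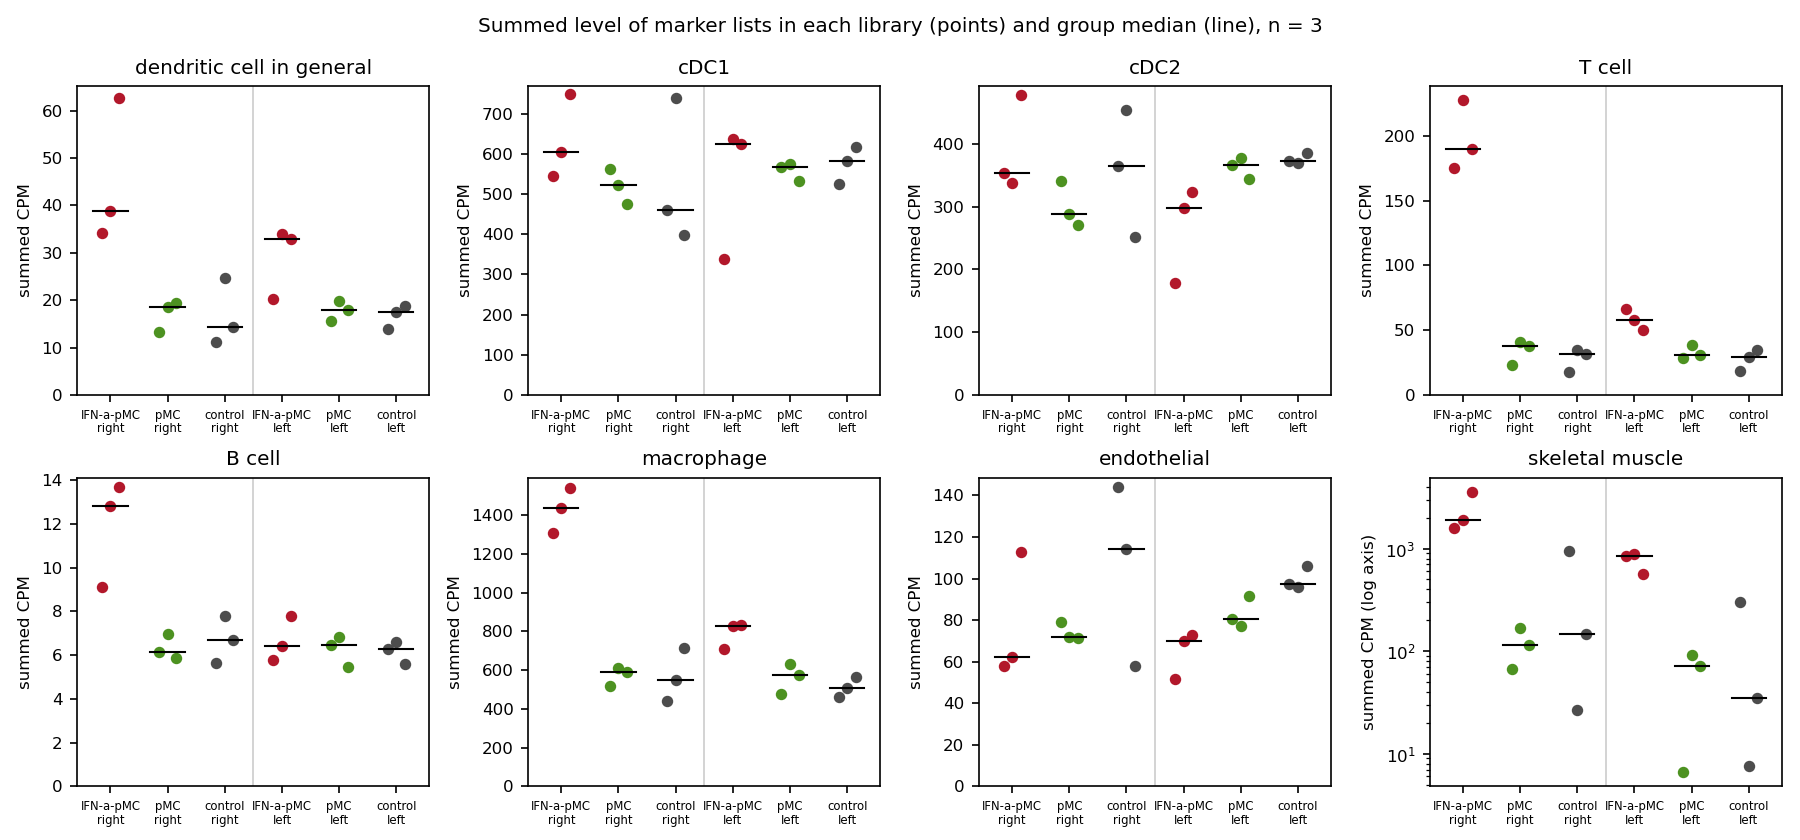
Summed CPM (vertical axes, logarithmic for skeletal muscle) of 8 marker lists in each library (points) with the group median (line), in the order IFN-alpha-pMC, pMC and control for right and then left tumours. T cell, macrophage and skeletal muscle levels of injected IFN-alpha-pMC tumours lie above all right controls (T cell 175 to 228 against 17.6 to 34.7 CPM), while the cDC1 and cDC2 sums overlap.

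The genes whose pattern over the 18 libraries was most like that of each member were found by the mean absolute difference in centred log2 CPM. For Ccr7 these were Inpp1 (0.199), H2-Eb1 (0.203) and Cd74 (0.213). For Cd40 they were Cd300c2 (0.126), Slamf9 (0.126) and Lair1 (0.135). For Ccl22 they were Ifit2 (0.298), Oas3 (0.298) and Rgs16 (0.314). Cd83 was most like Qpct (0.171). Fscn1 (Ddx54, 0.0713), Marcksl1 (Hyal2, 0.0993), Relb (Kctd21, 0.0911) and Zbtb46 (Psme3, 0.0893) each had a different nearest gene. No gene appeared in the first 3 of more than 1 member.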

How the data were processed

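Stranded mRNA libraries of 18 tumours were sequenced. For each library the authors deposited 1 table of whole-number counts by Ensembl gene ID, without normalization. Per the submitters' processing notes, the tools were HTSeq 0.10.0, HISAT2 2.1.0, Trimmomatic 0.36 and DESeq2 1.20.0, and the build was mm9. Annotation release and strand setting: not given in the sources used here. Summary rows of the counter were left out; 60.2% to 70.7% of read pairs were assigned to genes. Symbols and exon lengths came from GENCODE on GRCm38 (32897 of 37620 IDs had a symbol), promoters from RefSeq.

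Groups came from the sample titles. Counts were tested with edgeR 4.0.16 (quasi-likelihood F test, two-sided, TMM scaling, filterByExpr, 14849 genes, 1 model of 6 group means, 12 residual degrees of freedom) in R 4.3.3, with Benjamini-Hochberg adjustment over all genes and a threshold of 0.05. All 8 members passed the filter. The SE is the log2 fold change divided by the square root of F, and 95% intervals use it with 12 degrees of freedom, so they are approximate. CPM is per library total. Fold changes are not the ratio of printed CPM means, because TMM factors ran from 0.839 to 1.1. Alternatives were DESeq2 1.42.0, its size factors, other filters, compared groups alone, a replicate block, a skeletal muscle covariate and leaving out libraries. The procedure was tested on simulated data. The members and lists were chosen with earlier results of these data known. From the lists of other mature genes and partners, the 4 genes with the smallest p on the right against control were named, plus Ccl19, Ccl21a, Ccr4, Cd40lg and Nfkb2; Itgax, Kmo, Ciita, Flt3 and Il12b were named after their values were seen. 1 gene of the B cell list is not reported here by name.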

Additional observations from a re-analysis of the deposited data

How the results depend on the processing

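The count of members called depended on the libraries in each fit. In injected tumours against control, 2 members were called. The count was 0 with the compared groups alone and 4 without the 3 libraries that stood apart, when 54.4% of all genes were called. It was 0 to 4 when single libraries were left out (0 without right control library 1, 4 without right control library 3). Against pMC on the right it was 2, with 1 under the muscle covariate and 0 to 2 when single libraries were left out. The shares of all genes called without single right libraries are not given here, so these counts are not read as a result about the members. On the left against control the count of members was 1, with 3 by DESeq2 and 3 with the compared groups alone. It was 0 under the muscle covariate, 5 without the 3 libraries and 0 to 1 leaving out single ones. On the left against pMC it was 0, with 1 by DESeq2, 2 with the compared groups alone and 1 without the 3 libraries. Of all genes, DESeq2 called 19.3% and 13.9% on the left, against control and pMC. Without the 3 libraries 28.8% and 27.6% were called there. With the groups alone the left counts over all genes rose too, and under the covariate they fell, as the next paragraph gives. The left counts are likewise not read as a result about the members. For right pMC against control the count of members was 0, with 2 without the 3 libraries, when 33.7% of all genes were called. The counts for left pMC, right against left and the side differences were 0 in all alternatives. No member turned its sign with a call, but Nfkb1 (right against control) was -0.44 and Traf3 (side difference against control, 0.09 with all libraries) was -0.72 without the 3 libraries. The cause was not tested.

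Over all genes, the right counts against control and pMC (1601 and 1497) were 895 and 702 under the muscle covariate, 582 (control) with the groups alone, and 8175 and 4287 without the 3 libraries. The left counts (987 and 572) were 114 and 60, 3062 and 2538, and 4331 and 4142 in the same order, 2864 and 2059 by DESeq2, 464 and 350 with a replicate block, and as low as 86 and 33 when a single library was left out. Right pMC against control was 0, and 5067 without the 3 libraries. Right against left in IFN-alpha-pMC (375) was 586 by DESeq2, 190 with the groups alone and 863 without the 3. The side difference was 0 against control, with 87 by DESeq2, 20 with the block and 761 without the 3, and 58 against pMC, with 282 by DESeq2, 133 with the block and 0 to 85 leaving out single libraries.

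The labels do not say that sample numbers mark animals. Libraries of the same number did not all deviate together. The correlation of deviations ran from -0.25 to 0.6 between sides and from -0.76 to 0.37 between treatments on 1 side. With 3 libraries per group, these correlations cannot decide whether equal numbers share an animal. The replicate block, which ties equal numbers across the 6 groups in the treatment comparisons and right to left in the others, added Ccl22 on the right against control (1.5, adjusted p = 0.0193) and Ccr7 on the right against pMC (1.18, adjusted p = 0.0306), giving 3 members called in each. The share of all genes called with the block on the right is not given here. Depth limits Ccr7 and Ccl22, with at most 73 counts per library.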
